A study of Mus musculus with 14 samples.

Results

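Nuclear genes for the subunits of respiratory complexes II, III, IV and V were followed in the dentate gyrus of cultured mouse brain slices with and without the amyloid precursor protein, APP. The members were the rows whose symbol begins with Uqcr, Cox4 to Cox8 or Atp5, or is Sdha, Sdhb, Sdhc or Sdhd, and that the deposited annotation calls protein-coding. Of 58 symbols matching this pattern, 10 were pseudogene rows, and Atp5j and Atp5o were not taken by the rule because they lie within 10 Mb of App. This left 46 members of 55291 rows, with 4 genes in complex II, 8 in complex III, 19 in complex IV and 15 in complex V. A filter on low counts kept 44 of them among the 22150 genes tested. Cox8b and Cox8c did not pass it. Cox5b-ps is protein-coding in the annotation although its symbol marks a pseudogene, and its reads cannot be told apart with certainty from those of Cox5b.

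Complexes II, III and IV pass electrons from succinate and reduced coenzyme Q through cytochrome c to oxygen in the inner mitochondrial membrane, and complexes III and IV pump protons as they do so. Complex V, the ATP synthase, lets the protons flow back and makes ATP. Complex II is encoded wholly in the nucleus, whereas complexes III, IV and V combine nuclear subunits with a few made inside the mitochondrion. Several nuclear subunits of complex IV and the c subunit of complex V are encoded by alternative genes that tissues use in different proportions, and neurons depend heavily on this pathway for ATP.

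Poly(A) RNA was sequenced from 14 dentate gyri, each cut from a single entorhino-hippocampal slice culture. The 6 wildtype cultures came from C57BL/6J mice (APP+/+) and the 8 APPko cultures from APP-deficient mice (APP-/-). Slices were cut on postnatal day 4 or 5 and matured for at least 18 days, and the labels name no treatment. The labels name no cell type to which the APP deficiency is restricted, and do not name the strain background of the APPko mice. The labels do not say which cultures shared an animal or a preparation, and a p-value here sets the genotype difference against the variation from culture to culture, which may be partly technical. Each value comes from a mixture of cells, in which fewer cells of a type and less RNA per cell cannot be told apart.

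Libraries held 16686909 to 31031126 assigned counts. Levels are given as CPM, counts scaled to a library total of 1000000, after TMM scaling, which sets the libraries to a common level by the trimmed mean of their gene ratios. App, the targeted gene, lay at 679 to 964 CPM in wildtype and 182 to 231 CPM in APPko, with every APPko library below every wildtype library (log2 change -1.92, SE 0.11, edgeR adjusted p = 9.19e-09). Markers of granule cells, the main neurons of this region, were present, with Prox1 at 158 ± 40.5 CPM in wildtype and 151 ± 33.4 CPM in APPko (SD, n = 6 and 8). Prox1 alone does not stand for these cells, since 6 of 7 such markers had a negative log2 change, as given below. Wildtype libraries 2 and 3 stood apart from the other 12: their TMM factors were 0.852 and 0.847, against 0.976 to 1.09 elsewhere. Column headers in the files carry a suffix, f or m, whose meaning is not stated. The f libraries were wildtype 1, 2 and 3 and APPko 1 to 7, and the m libraries were wildtype 4, 5 and 6 and APPko 8.

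Across the 4 complexes, 4 members were higher in APPko and none was lower at an adjusted p under 0.05 (edgeR quasi-likelihood test, Benjamini-Hochberg adjustment over all genes tested). The 4 were Cox6a1, Cox8a and Cox4i2 of complex IV and Atp5g2 of complex V. Over all genes tested, 0.944% were called higher and 1.41% lower, or 2.35% in either direction. At an unadjusted edgeR p under 0.05, 11 of 44 members were higher and 3 were lower. Of all 22150 genes tested, 2008 were higher and 2519 lower at this limit, or 20.4% in either direction. The sign of the change was positive in 25 members and negative in 19, and the median log2 change was 0.03 over the members and -0.01 over all genes. By complex, the median log2 change was -0.07 in complex II, 0.06 in complex III, 0.03 in complex IV and 0.03 in complex V. Both signs occurred within every complex.

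**Figure D1:**
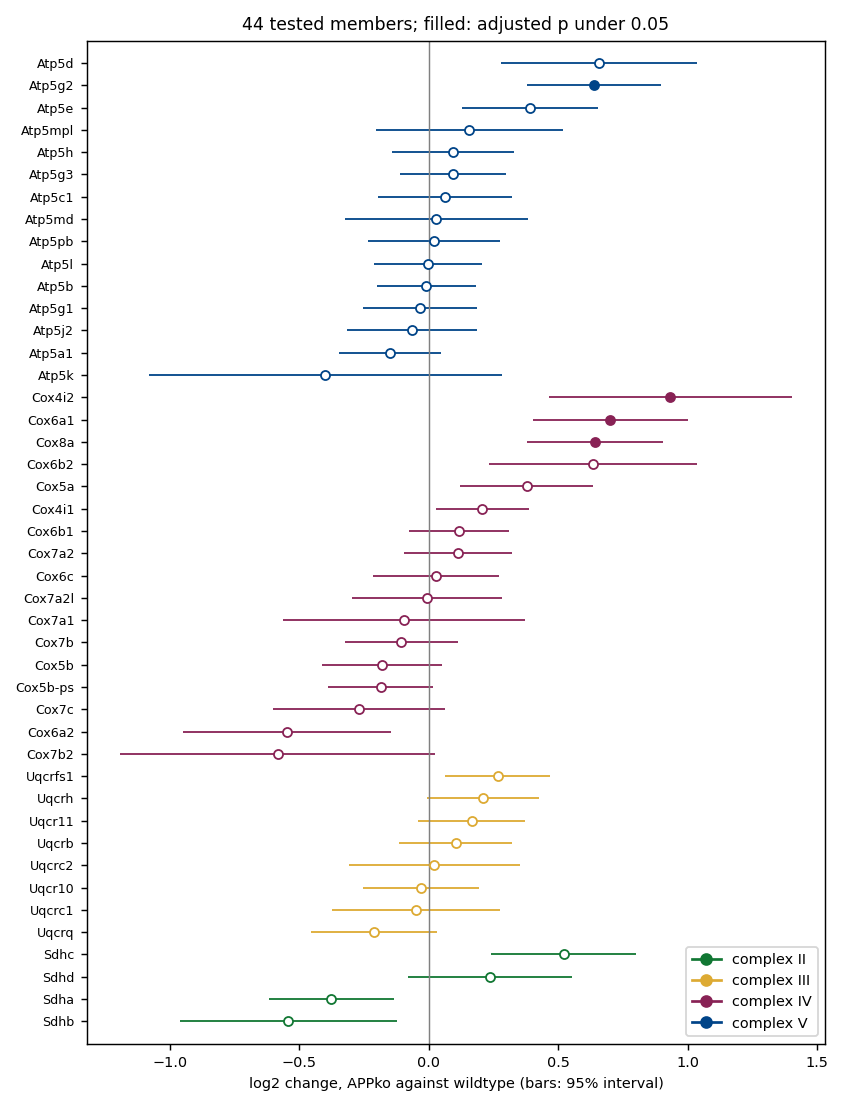
Log2 change of each of the 44 tested members (APPko against wildtype, horizontal axis) with its 95% interval, ordered within complexes II to V; filled points have an edgeR adjusted p under 0.05. The 4 filled points, Cox6a1, Cox8a, Cox4i2 and Atp5g2, lie to the right of 0, and most other intervals cross it.

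Complex II oxidises succinate to fumarate with the flavoprotein Sdha and the iron-sulfur protein Sdhb, which are held in the membrane by Sdhc and Sdhd. Its 4 genes moved in different directions and none passed the adjusted threshold. Sdhc, the member of this complex with the smallest p, ran from 60.5 through a median of 89.9 to 134 CPM in wildtype and from 110 through 135 to 150 CPM in APPko. Of the 8 APPko libraries, 4 lay above the highest wildtype library and the other 4 within the wildtype range (log2 change 0.52, SE 0.14, edgeR adjusted p = 0.058). Sdha ran from 286 through 335 to 503 CPM in wildtype and from 258 through 284 to 318 CPM in APPko (log2 change -0.38, SE 0.12, edgeR adjusted p = 0.096).

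Sdhb was the most abundant gene of complex II per length of transcript, at 1129 ± 484 TPM in wildtype (the same scale after division by transcript length) and 812 ± 70.6 TPM in APPko (SD, n = 6 and 8). Its level set wildtype libraries 2 and 3 apart, at 1335 and 1214 CPM, while the other 4 wildtype libraries lay between 476 and 546 CPM and the 8 APPko libraries between 462 and 628 CPM. The fitted log2 change of Sdhb was -0.54 (SE 0.21, edgeR adjusted p = 0.158), and it was 0.04 without these 2 libraries. Sdha was also highest in the same pair, at 503 and 472 CPM, against at most 337 CPM in every other library. Sdhc was lowest of all libraries in wildtype 2, so that the catalytic and the anchoring subunits did not rise in parallel there. Sdhd ran from 52.3 to 141 CPM in wildtype and from 96.5 to 142 CPM in APPko, and its groups overlapped.

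Complex III takes electrons from reduced coenzyme Q and hands them to cytochrome c. All 8 of its measured members overlapped between the groups, and none passed the threshold. Uqcrfs1, the Rieske iron-sulfur protein that accepts the first electron, had the smallest p of this complex: it ran from 161 through 187 to 251 CPM in wildtype and from 196 through 229 to 259 CPM in APPko (log2 change 0.27, SE 0.10, edgeR adjusted p = 0.154). One APPko library lay above the highest wildtype library, wildtype 4. The core proteins Uqcrc1 and Uqcrc2 had log2 changes of -0.05 and 0.02. The small subunits without redox centres, Uqcrb, Uqcrq, Uqcr10 and Uqcr11, and the hinge protein Uqcrh, which contacts cytochrome c1, ranged from -0.21 in Uqcrq to 0.21 in Uqcrh. Uqcr10 was the most abundant member of this complex per length, at 3017 ± 623 TPM in wildtype and 3007 ± 263 TPM in APPko (SD, n = 6 and 8). It ran from 614 through 734 to 1003 CPM in wildtype and from 662 through 764 to 801 CPM in APPko, with all APPko libraries inside the wildtype range.

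Complex IV, cytochrome c oxidase, reduces oxygen to water with mitochondrially encoded core subunits, and its nuclear subunits surround that core. Cox6a1 and Cox8a, the forms of subunits VIa and VIII that most tissues use, were the called members whose groups did not overlap. Cox6a1 ran from 612 through 853 to 1295 CPM in wildtype and from 1321 through 1548 to 1756 CPM in APPko. Cox8a ran from 445 through 605 to 815 CPM in wildtype and from 850 through 1030 to 1083 CPM in APPko. In both genes wildtype 2 was the lowest library, wildtype 4 was the highest wildtype library, and APPko 8 was close above it.

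The log2 change was 0.70 for Cox6a1 (SE 0.15, edgeR adjusted p = 0.030), a 1.63-fold difference, and 0.64 for Cox8a (SE 0.13, edgeR adjusted p = 0.028), a 1.56-fold difference. Ranges that did not overlap, with APPko above wildtype, were found in these 2 members and in 0.506% of all genes tested, and ranges with APPko below wildtype in none of the tested members and 0.609% of all genes. Per length of transcript, Cox6a1 stood at 2863 ± 978 TPM in wildtype, within the spread of Cox6c at 2911 ± 732 TPM, the highest of this complex there. In APPko it stood at 4671 ± 380 TPM and Cox8a at 3145 ± 254 TPM (SD, n = 6 and 8).

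Cox4i2 is an alternative form of subunit IV known from lung and from the response to low oxygen, and it was scarce here. It ran from 3.72 through 8.44 to 14.1 CPM in wildtype and from 9.08 through 15.9 to 20.1 CPM in APPko. Of the 8 APPko libraries, 6 lay above the highest wildtype library (log2 change 0.93, SE 0.24, edgeR adjusted p = 0.047). The common form, Cox4i1, ran from 792 through 886 to 930 CPM in wildtype and from 919 through 969 to 1128 CPM in APPko, with 7 of 8 APPko libraries above the wildtype range (log2 change 0.21, SE 0.09, edgeR adjusted p = 0.207).

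The other 14 tested members of complex IV were not called. Cox5a, a matrix-facing subunit, had a log2 change of 0.38 (SE 0.13, edgeR adjusted p = 0.114), and its highest library was APPko 8, at 429 CPM against 324 CPM or less in the other 13. Cox6b2, a form of subunit VIb known from testis, ran from 2.60 through 4.84 to 5.41 CPM in wildtype and from 4.14 through 6.63 to 9.12 CPM in APPko (log2 change 0.64, SE 0.21, edgeR adjusted p = 0.093). Cox6a2, the heart and muscle form of subunit VIa, ran from 31.4 through 39.7 to 87.8 CPM in wildtype and from 22.2 through 31.2 to 42.2 CPM in APPko (log2 change -0.55, SE 0.21, edgeR adjusted p = 0.138). Its value of 87.8 CPM came from wildtype 2. Cox6a2 shares 70 of its 680 exon bases with Itgad on the opposite strand, and no source used here states the strand setting of the counting.

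The most abundant member of complex IV per length in wildtype, Cox6c, ran from 829 through 973 to 1444 CPM in wildtype and from 837 through 1061 to 1171 CPM in APPko (log2 change 0.03). Cox6b1, the common form of subunit VIb, ran from 822 through 880 to 1183 CPM and from 956 through 1006 to 1076 CPM (log2 change 0.12). The remaining small subunits Cox5b, Cox7a2, Cox7a2l, Cox7b and Cox7c had log2 changes from -0.27 in Cox7c to 0.11 in Cox7a2. Cox7a1, the heart form of subunit VIIa, lay at 5.19 ± 2.52 CPM in wildtype and 4.83 ± 0.989 CPM in APPko, and Cox7b2 at 0.822 ± 0.212 CPM and 0.55 ± 0.209 CPM (SD, n = 6 and 8). Cox8b, the heart and muscle form of subunit VIII, had 4 reads in all wildtype and 10 in all APPko libraries, and Cox8c had 2 reads in each group. Cox5b-ps changed by -0.19 on the log2 scale, beside -0.18 for Cox5b.

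Complex V couples the F1 part, which makes ATP from subunits alpha (Atp5a1), beta (Atp5b), gamma (Atp5c1), delta (Atp5d) and epsilon (Atp5e), to a membrane rotor of c subunits. Atp5g2 was the called member. Atp5g1, Atp5g2 and Atp5g3 encode the same mature c subunit behind different import sequences. Atp5g2 ran from 32.3 through 40.9 to 59.6 CPM in wildtype and from 54.7 through 66.9 to 74.2 CPM in APPko. Of the APPko libraries, 6 lay above the highest wildtype library and 2 within the wildtype range (log2 change 0.64, SE 0.13, edgeR adjusted p = 0.026). Its exons share 75 of 1675 bases with Mir688 on the same strand. Atp5g1 and Atp5g3 gave most of the c subunit RNA, and their log2 changes were -0.03 and 0.09.

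In the F1 part, Atp5d ran from 32.1 through 67.4 to 93.6 CPM in wildtype and from 84.3 through 100.1 to 115 CPM in APPko (log2 change 0.66, SE 0.19, edgeR adjusted p = 0.072). Atp5e had a log2 change of 0.39 (SE 0.13, edgeR adjusted p = 0.111). The 3 large F1 subunits lay close to 0, at -0.15 for Atp5a1, -0.01 for Atp5b and 0.06 for Atp5c1. Without wildtype 2 and 3 the log2 change of Atp5d was 0.37, that of Atp5e 0.21 and that of Atp5c1 0.24. With the trend over GC content removed it was 0.435 for Atp5d and 0.24 for Atp5e. Atp5d shares 68 of its 1928 exon bases with Cbarp on the opposite strand.

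None of the stalk and membrane subunits outside the c ring was called. Atp5h, subunit d of the stalk, was the most abundant member of complex V per length, at 2207 ± 271 TPM in wildtype and 2404 ± 287 TPM in APPko (SD, n = 6 and 8). It ran from 631 through 784 to 941 CPM in wildtype and from 744 through 802 to 1125 CPM in APPko. Atp5k, subunit e, ran from 190 through 276 to 1056 CPM in wildtype and from 160 through 312 to 466 CPM in APPko (log2 change -0.40, SE 0.35, edgeR adjusted p = 0.557). Its highest library was wildtype 1 and its second highest wildtype 6, at 591 CPM. Wildtype 1 was also the highest of the 14 libraries for the small proteins Atp5md and Atp5mpl, at 1169 and 490 CPM, and for Cox7c of complex IV, at 1244 CPM. APPko 8 was the lowest APPko library in these 4 genes, at 160 CPM for Atp5k, 516 for Atp5md, 208 for Atp5mpl and 453 for Cox7c. Atp5pb, Atp5j2 and Atp5l, other membrane subunits, had log2 changes of 0.02, -0.06 and 0.00.

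**Figure D2:**
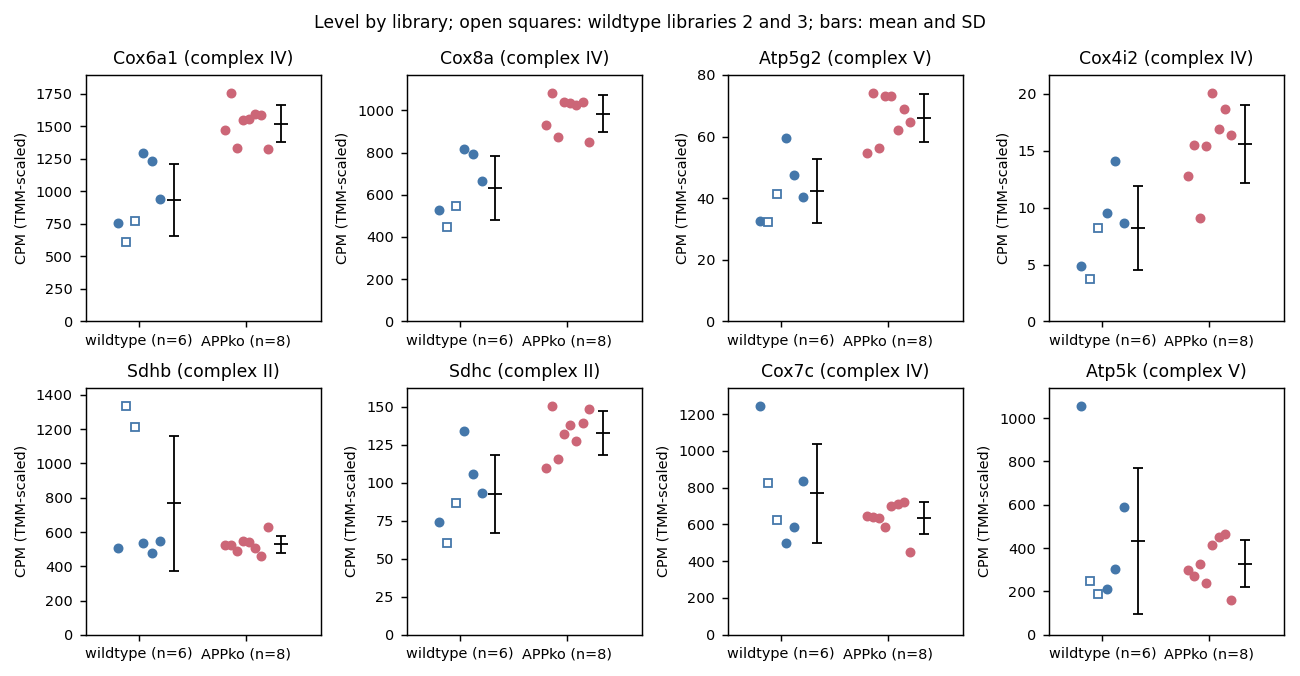
Level of 8 members in each library (vertical axis, CPM after TMM scaling; points, libraries; open squares, wildtype 2 and 3; bars, mean and SD; n = 6 wildtype and 8 APPko). Cox6a1 and Cox8a do not overlap between genotypes, Sdhb is high in wildtype 2 and 3 at 1335 and 1214 CPM, and Cox7c and Atp5k are highest in wildtype 1.

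Summed over its members, each complex overlapped between the genotypes. These sums leave out Cyc1 of complex III, and Atp5j and Atp5o of complex V. Complex II summed to 971 to 1990 CPM in wildtype and 974 to 1209 CPM in APPko, and the 2 highest values were wildtype 2 and 3, at 1990 and 1889 CPM. Complex III summed to 3380 to 4540 CPM in wildtype and 3687 to 4071 CPM in APPko. Complex IV summed to 7151 to 8802 CPM in wildtype, with a median of 7563, and to 8106 to 9420 CPM in APPko, with a median of 8676; wildtype 1 was the only wildtype library at or above the lowest APPko library. Complex V summed to 6151 to 8695 CPM and 6579 to 7839 CPM. The members took 1.93 ± 0.22% of all counts in wildtype and 2.15 ± 0.072% in APPko (SD, n = 6 and 8).

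**Figure D3:**
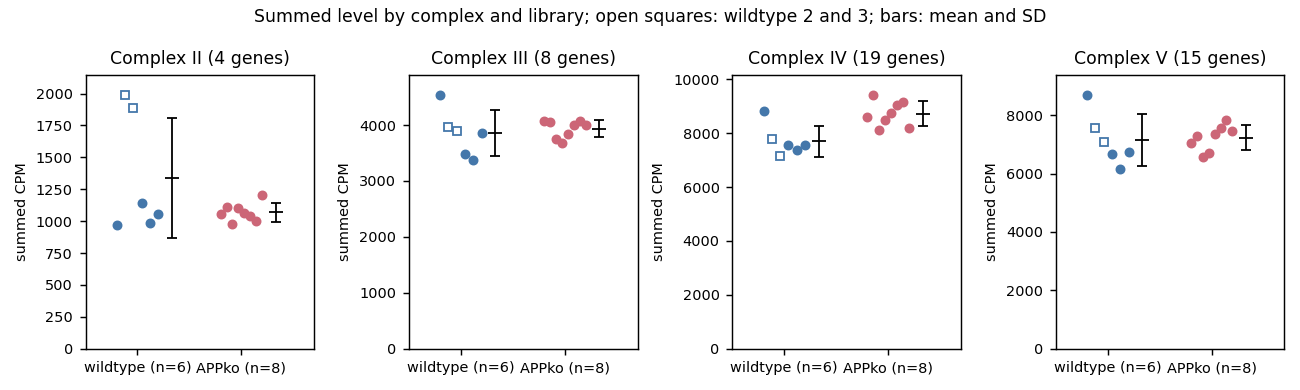
Summed CPM of the members of each complex in each library (points; open squares, wildtype 2 and 3; bars, mean and SD; n = 6 wildtype and 8 APPko). Complex II is highest in wildtype 2 and 3 at 1990 and 1889 CPM, and complex IV in APPko lies between 8106 and 9420 CPM, overlapping wildtype 1 at 8802 CPM.

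Wildtype libraries varied more than APPko libraries. On the log2 scale the SD was larger in wildtype for 42 of 44 members (95.5%), and for 78.3% of all genes tested. Without wildtype 2 and 3 these shares were 38 of 44 members (86.4%) and 63.6% of all genes. The median SD over the members was 0.33 in wildtype, 0.28 without that pair, and 0.16 in APPko. Of the 44 members, 14 had their highest level in wildtype 1, 6 in wildtype 2, 5 in wildtype 3, 7 in APPko 8 and 6 in APPko 2.

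Alternative genes for 1 subunit were then compared as ratios of counts within a library, which do not depend on the scaling between libraries. Of 8 such ratios, 3 differed between the genotypes in a 2-sided exact permutation test over 3003 splits, with Benjamini-Hochberg adjustment over the 8. There were 5.78 ± 4.32 Cox6a2 counts for every 100 Cox6a1 counts in wildtype and 2.11 ± 0.49 in APPko (SD, n = 6 and 8), a log2 difference of -1.24 (exact permutation p = 0.000666, adjusted p = 0.0027). The wildtype libraries ran from 2.56 through 4.30 to 14.3, the last being wildtype 2, and the APPko libraries from 1.60 through 2.07 to 3.07. Of the APPko libraries, 7 of 8 lay below the lowest wildtype library. Without wildtype 2 and 3 the difference was -0.80 (exact permutation p = 0.0040, adjusted p = 0.016).

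Atp5g2 made up 3.80 ± 1.03% of the counts of the 3 c subunit genes in wildtype and 5.62 ± 0.46% in APPko (SD, n = 6 and 8). The range was 2.35 through 3.66 to 5.09% in wildtype and 4.89 through 5.53 to 6.32% in APPko, with 7 of 8 APPko libraries above every wildtype library. The log2 difference was 0.61 (exact permutation p = 0.000666, adjusted p = 0.0027) and 0.40 without wildtype 2 and 3 (exact permutation p = 0.0040, adjusted p = 0.016). Atp5g1 made up 59.2 ± 3.87% and 56.4 ± 2.68%, and Atp5g3 37.0 ± 3.10% and 38.0 ± 2.48% (SD, n = 6 and 8). The exact permutation test gave adjusted p = 0.220 for the Atp5g1 share and 0.656 for the Atp5g3 share.

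There were 0.936 ± 0.403 Cox4i2 counts for every 100 Cox4i1 counts in wildtype and 1.56 ± 0.353 in APPko (SD, n = 6 and 8). The ratio ran from 0.412 through 0.977 to 1.58 in wildtype and from 0.988 through 1.47 to 2.06 in APPko, and 3 of 8 APPko libraries lay above the wildtype range. The log2 difference was 0.82 (exact permutation p = 0.0090, adjusted p = 0.024) and 0.58 without wildtype 2 and 3, where it did not pass (exact permutation adjusted p = 0.124). It also missed the threshold without wildtype 1, at 0.72, and without wildtype 2, at 0.61. Cox6b2 to Cox6b1 differed by 0.52 (exact permutation adjusted p = 0.089) and by 0.23 without wildtype 2 and 3. Cox4i1 shares 154 of its 1550 exon bases with Emc8 on the opposite strand. Cox7a1 to Cox7a2 and Cox7a2l to Cox7a2 differed by -0.13 and -0.08, short of the threshold (exact permutation, adjusted p = 0.656 and 0.712).

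**Figure D4:**
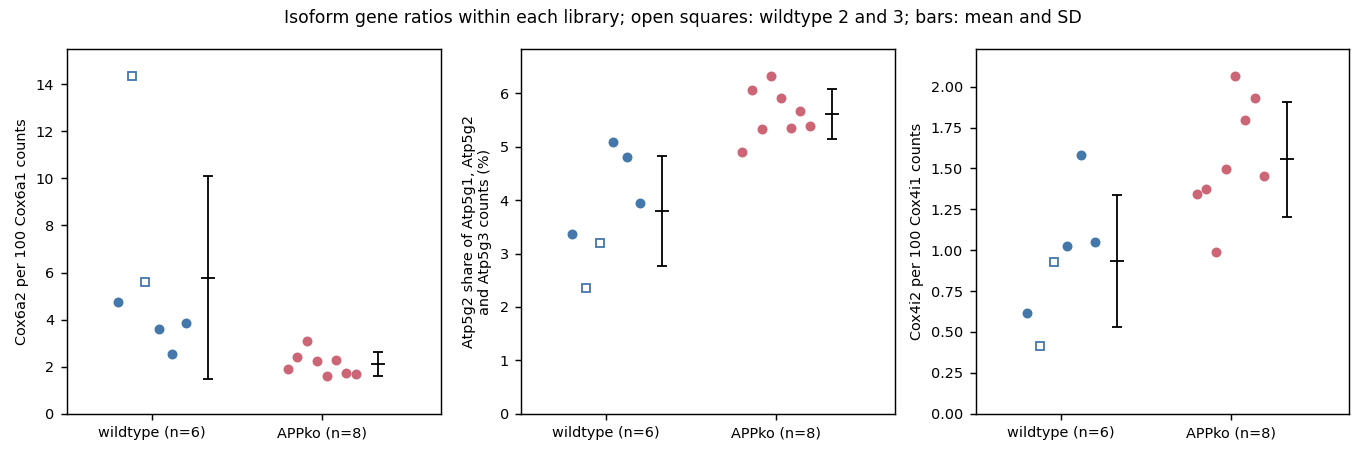
Ratios of counts between alternative genes within each library (points; open squares, wildtype 2 and 3; bars, mean and SD; n = 6 wildtype and 8 APPko): Cox6a2 per 100 Cox6a1 counts, Atp5g2 in percent of Atp5g1, Atp5g2 and Atp5g3 counts, and Cox4i2 per 100 Cox4i1 counts. The first ratio is lower in APPko, with wildtype 2 at 14.3, and the other two are higher in APPko.

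The 4 calls depended on which libraries were fitted. Without wildtype 2 and 3 no member was called, and 0.147% of all genes were. The log2 changes were then 0.53 for Cox6a1, 0.50 for Cox8a, 0.56 for Atp5g2 and 0.76 for Cox4i2 (edgeR adjusted p = 0.100, 0.086, 0.100 and 0.184). Leaving out APPko 2, APPko 5, APPko 7, wildtype 2 or wildtype 3 alone also left no call. In these fits 22 to 46 of all genes were called higher and 16 to 41 lower, against 209 and 312 in the main fit. Leaving out APPko 1, 4 or 6 left Cox8a and Atp5g2, with 52 to 92 of all genes called higher and 31 to 54 lower. Leaving out wildtype 4 gave 8 higher members, when 6.36% of all genes were called. Over the 14 fits that each left out 1 library, Cox8a and Atp5g2 passed in 9, Cox6a1 in 6 and Cox4i2 in 3. The log2 change stayed between 0.61 and 0.82 for Cox6a1, 0.56 and 0.73 for Cox8a, 0.57 and 0.76 for Atp5g2, and 0.79 and 1.15 for Cox4i2.

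Within the f libraries, 3 wildtype against 7 APPko, the log2 changes were larger: 1.11 for Cox6a1, 0.98 for Cox8a, 0.90 for Atp5g2 and 1.47 for Cox4i2, with 15.6% of all genes called and 13 of 44 members, 7 higher and 6 lower. This set includes wildtype 2 and 3. The m libraries hold a single APPko culture and allow no replicate check. There, Cox6a1 stood at 1295, 1229 and 937 CPM in wildtype and 1321 in APPko, and Cox8a at 815, 791 and 664 against 850 CPM. Atp5g2 stood at 59.6, 47.4 and 40.3 against 64.8 CPM, and Cox4i2 at 9.53, 14.1 and 8.69 against 16.4 CPM. In each of the 4 genes the APPko library of the m set lay above its 3 wildtype libraries. The genes were called with these libraries included, so this order is not a separate check. With the suffix as a covariate, 7 members were higher and 2, Sdha and Cox6a2, were lower, when 6.53% of all genes were called. DESeq2 called 8 members higher and Sdha lower, and 8.13% of all genes.

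GC content, the percentage of G and C bases in a gene's transcripts, moved with the changes. Cox6a1 had 60.8% GC, Cox8a 58.6%, Cox4i2 56.9% and Atp5g2 56.8%, and the median over the members was 51.2%. Over the 44 members the Spearman correlation of log2 change with GC content was 0.28, and over 22132 genes it was 0.36; genes share the same libraries, so both are descriptions. When the trend over GC content was removed from each library, no member was called, and 1.01% of all genes were. The log2 changes were then 0.42 for Cox6a1, 0.39 for Cox8a, 0.43 for Atp5g2 and 0.75 for Cox4i2 (edgeR adjusted p = 0.123, 0.097, 0.097 and 0.095). The members of the ratios also differed in GC content: Cox6a2 had 52.8%, Atp5g1 51.3%, Atp5g3 46.7% and Cox4i1 54.9%. The part of GC content in the ratios was not tested.

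**Figure D5:**
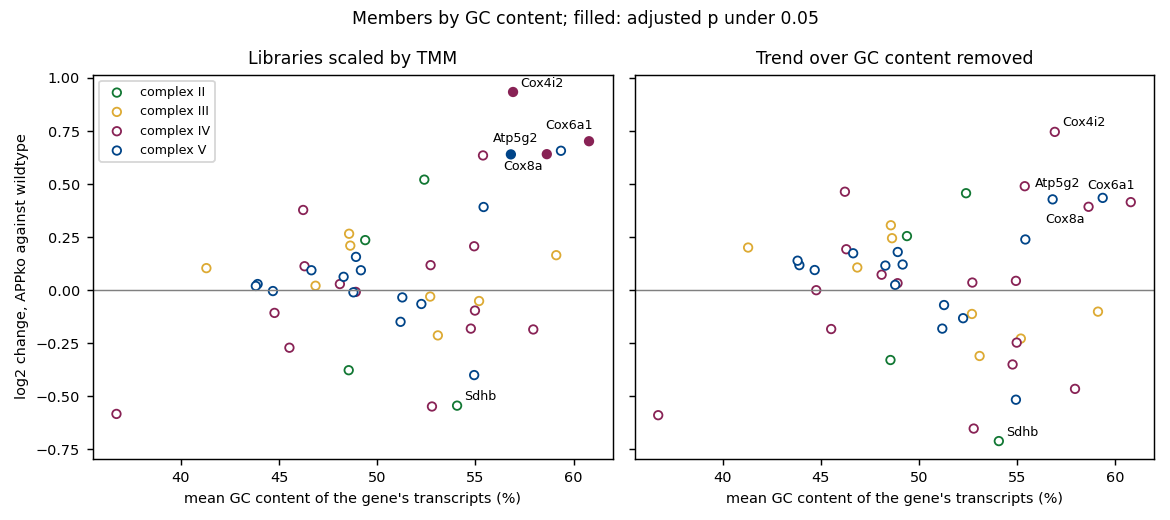
Log2 change (APPko against wildtype, vertical axis) of the 44 tested members against the mean GC content of their transcripts (horizontal axis, %), before (left) and after (right) the trend over GC content was removed from each library; filled points have an edgeR adjusted p under 0.05. The 4 filled points on the left lie above 56% GC, and on the right no point is filled.

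Promoter sequences of 34 members were found in RefSeq (mouse build GRCm38.p6) as windows of 300 bases, from 250 before to 50 after the gene's start. Each was searched on both strands for motifs of factors known to act at respiratory genes. The motif of nuclear respiratory factor 1 (GCGC, then A and any base, then GCGC) was in 8 of 34 windows (23.5%) and in 4.78% of all 27025 windows. The ETS motif CCGGAAG, the core of which nuclear respiratory factor 2 recognises, was in 12 (35.3%) and in 9.12% of all windows. The GC box GGGCGG was in 13 (38.2%) against 35.9%, and the YY1 motif AAGATGG in 3 (8.82%) against 6.48%. Matches of different motifs may overlap, and a match describes letters, not a bound site. The windows of all genes were not matched to those of the members for GC content or expression. The part of base content in these shares was not tested. The members with the first motif came from complexes II, III, IV and V, and 2 of the 8, Cox6a1 and Atp5g2, were among the called genes. The called gene Cox4i2 was not among the 34 members with a window and was not searched.

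The first match in each of these 8 windows is shown with 10 bases on either side, because the motif was in a larger share of the members than of all windows and both Cox6a1 and Atp5g2 hold it. Capitals mark the motif, and each line reads 5′ to 3′ along the gene. In Atp5g3 and Uqcrc1 the match is on the opposite strand, so that T stands for the A of the motif. Cox6a1 and Atp5g2 are given first, then the uncalled members.
Cox6a1: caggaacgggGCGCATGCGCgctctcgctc
Atp5g2: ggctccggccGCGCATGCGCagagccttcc
Atp5g3: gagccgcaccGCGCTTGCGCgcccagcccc
Atp5h: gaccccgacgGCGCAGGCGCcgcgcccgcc
Atp5k: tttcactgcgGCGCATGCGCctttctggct
Sdha: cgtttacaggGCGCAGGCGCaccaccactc
Sdhd: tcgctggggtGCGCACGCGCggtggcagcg
Uqcrc1: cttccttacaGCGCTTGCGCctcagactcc

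The Cox6a1 stretch lies at chr5:115349101-115349130 and the Atp5g2 stretch at chr15:102671070-102671099, both on the minus strand, and the motif starts 162 and 42 bases before the gene's start in RefSeq. In the deposited annotation Atp5g2 starts farther upstream, at position 102672352, so that its stretch lies within the gene's annotated span. Cox6a1 held 2 matches and Atp5g2 held 1. Of the uncalled c subunit genes, Atp5g3 held 1 and Atp5g1 none. Sdha, with a negative change, held 3 and Uqcrc1 held 2. The match was thus found in members that were called and in members that were not. Cox8a had no such match and 2 matches of the ETS motif, and the first of them is shown beside that of Cox6a1, on the opposite strand, so that its capitals read CTTCCGG.
Cox8a: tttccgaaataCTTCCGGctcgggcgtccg
Cox6a1: ccccatttccgCTTCCGGcgcgccggtgta

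The Cox8a stretch lies at chr19:7217603-7217632 and that of Cox6a1 at chr5:115348956-115348985, and the motifs start 5 and 16 bases before the gene's start in RefSeq.

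Other genes of the pathway and markers of cell types were taken from 18 lists of 174 genes in all, 11 of them pathway lists. Of 36 tested nuclear subunits of complex I, which feeds electrons from NADH into the chain, none was called in either direction, 8 had an unadjusted edgeR p under 0.05, and the median log2 change was -0.06. Cytochrome c, Cycs, stood at 716 ± 357 CPM in wildtype and 452 ± 70.2 CPM in APPko, and was not called (log2 change -0.66, edgeR adjusted p = 0.101). Cyc1, the cytochrome c1 of complex III, had a log2 change of 0.29 (edgeR adjusted p = 0.113). Assembly factors were not called either, with 4 tested for complex II, 6 for complex III, 18 for complex IV and 5 for complex V, of which 0, 1, 4 and 0 had an unadjusted edgeR p under 0.05.

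Of 6 mitochondrially encoded subunits of complexes III to V, 1 was lower: mt-Co3, a core subunit of complex IV, ran from 68.6 through 114 to 155 CPM in wildtype and from 65.9 through 70.9 to 79.9 CPM in APPko (log2 change -0.64, SE 0.14, edgeR adjusted p = 0.028). The other core subunits of complex IV, mt-Co1 and mt-Co2, had log2 changes of -0.10 and 0.06. In wildtype mt-Co3 and mt-Co2 stood at only 113 and 27.9 CPM on average, against 12403 CPM for mt-Co1. How reads with several matches were counted is not known, so these low counts may hold a part of their reads. The part of counting in the change of mt-Co3 was not tested. Of 7 genes for exchange of adenine nucleotides and phosphate, Ckmt1, the mitochondrial creatine kinase of brain, was lower (log2 change -0.53, SE 0.11, edgeR adjusted p = 0.028). None of 12 citric acid cycle enzymes, 10 transcriptional regulators of respiratory genes or 18 import and cristae genes was called by edgeR, and 1, 2 and 6 of them had an unadjusted p under 0.05. Ppargc1a, a coactivator of mitochondrial genes, had a log2 change of -0.29 (edgeR adjusted p = 0.115), Sucla2 of the citric acid cycle -0.77 (edgeR adjusted p = 0.127), and the import chaperone Timm13 0.37 (edgeR adjusted p = 0.061).

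A few markers of cell types were called by edgeR, and most were not. Of all genes tested, 2.35% were called in either direction. Of 7 microglia markers, Tyrobp and C1qb were higher in APPko (log2 changes 1.07 and 0.92, edgeR adjusted p = 0.028 and 0.047). Of the others, C1qa and Csf1r had log2 changes of 1.2 and 0.29, and Aif1, Cx3cr1 and P2ry12 of 0.08, -0.03 and -0.26, and none of these 5 was called. The sum of the list was 249 to 566 CPM in wildtype and 463 to 771 CPM in APPko. Within wildtype the sum was lowest in libraries 2 and 3, at 249 and 282 CPM. Tyrobp was highest in wildtype 4, at 103 CPM, the library with the highest Cox6a1 and Cox8a of its group. C1qa, C1qb and P2ry12 were also highest there among the wildtype libraries. Aif1 was highest in wildtype 2, at 69.4 CPM, and Csf1r and Cx3cr1 in wildtype 1, at 42.0 and 48.4 CPM. Of 7 granule cell markers, Rfx3 was lower (log2 change -0.52, edgeR adjusted p = 0.031), and the list summed to 784 to 1329 CPM in wildtype and 558 to 970 CPM in APPko. The change was negative in 6 of the 7, with a median of -0.27, and was largest in Calb1, which was not called (log2 change -0.71, edgeR adjusted p = 0.138). None was called among markers of mossy cells and CA fields, interneurons, astrocytes, the oligodendrocyte lineage or vessel and fibroblast cells. In these lists 0 to 3 genes had an unadjusted edgeR p under 0.05. The median log2 changes were -0.113, -0.293, -0.035, -0.111 and 0.139 in that order, and 5 of 6 interneuron markers were negative. The genes of smallest p, in the same order, were Bok (log2 change 0.66), Pvalb (-0.73), Gja1 (-0.62), Pdgfra (-0.21) and Pdgfrb (0.73). The part of these cells in the changes of Cox6a1, Cox8a, Cox4i2 and Atp5g2 was not tested.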

How the data were processed

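The authors deposited 1 table of read counts per gene and library; per the submitters' processing notes, cutadapt 3.5, STAR 2.7.8a and featureCounts 2.0.1 were used with build GRCm38 (mm10). Whether strand was used in counting, and how reads with several matches were treated, is not known here. Per the labels' protocols, cDNA was amplified with 12 cycles and the library with 10, and paired ends of 151 bases were read; without molecular identifiers, counts hold amplification copies.

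The counts were fitted with edgeR 4.0.16 (R 4.3.3): filterByExpr by genotype, TMM factors, robust quasi-likelihood test, 6 wildtype against 8 APPko, Benjamini-Hochberg adjustment over 22150 genes, threshold 0.05. TPM used the annotation's principal transcript length. Isoform ratios added 0.5 to each count. On simulated data of 21327 genes the test recovered 28.4% of 1.5-fold, 82.1% of 2-fold and 98.5% of 4-fold changes, with 2 false calls among 21127 unchanged genes. Each gene was drawn independently there, without shifts shared by many genes such as those of wildtype 2 and 3 or a trend over GC content. These rates therefore need not hold for the real libraries. Depth was lowest in wildtype 5, at 16686909 counts. No pair of libraries of 1 genotype agreed within sampling noise. Alternatives included DESeq2 1.42.0, limma 3.58.1 and sva 3.50.0.

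Any member could be named. Values per library were given for called members, the member of smallest p and of highest level per length in each complex, and alternative genes; others were described after their values were seen. Side lists are named by called genes or, without one, the smallest p, and some lists name further genes. The lists of complex I subunits and of assembly factors name no gene. The members and lists were chosen with earlier results of these data known. Promoter stretches other than those of Atp5g2 and Cox8a were chosen after the values were seen.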

Additional observations from a re-analysis of the deposited data

Results flagged for a closer look

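The highest or lowest library of each genotype was compared with its nearest neighbour for the members, complex sums and isoform ratios. In 9 of 112 such groups 1 library lay farther from the rest than Dixon's 95% limit allows, and chance alone gives about 1 in 20. Wildtype 1 was far above the other wildtype libraries for Uqcrb (456 CPM), Uqcrh (699 CPM) and Atp5l (298 CPM), and for the sum over complex IV (8802 CPM). Wildtype 2 was far above for Cox6a2 (87.8 CPM) and for the ratio of Cox6a2 to Cox6a1 (14.3 per 100 counts). Wildtype 4 was far above for Uqcrfs1 (251 CPM). APPko 8 was far above the other APPko libraries for Cox5a (429 CPM) and Atp5h (1125 CPM). The cause was not tested.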

How the results depend on the processing

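Main values are 4 members higher and 0 lower, 209 and 312 of all genes, and 2 and 3 genes of the other lists. Under DESeq2 these pairs were 8 and 1, 749 and 1052, and 9 and 10. With the f libraries alone they were 7 and 6, 1674 and 1998, and 11 and 29. Fitting the f or m suffix as a covariate gave 7 and 2, 718 and 728, and 8 and 8. Without wildtype 2 and 3 they were 0 and 0, 19 and 16, and 0 and 0. Against a fold of 1.2 they were 0 and 0, 7 and 7, and 0 and 0. With GC content removed, 0 members, 90 and 133 genes, and 1 listed gene higher were called. Removing a length trend gave 139 and 207 genes and 1 listed gene higher. Genes called lower numbered 176 with 1 surrogate variable, 170 without a filter, 119 scaled by total counts and 173 with voom; listed genes called higher numbered 1, 1 and 5 in the first 3 of these. Scaling by total counts moved the median of all genes from -0.01 to 0.08. Leaving out each library in turn gave 0 to 8 members higher, 22 to 735 genes higher and 16 to 701 lower, and 0 to 10 listed genes higher and 0 to 6 lower; the log2 difference of the ratio, higher in APPko, was 0.61 to 0.99 for Cox4i2 to Cox4i1 and 0.40 to 0.64 for Cox6b2 to Cox6b1.

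Libraries of the same number in both genotypes did not deviate together (correlations from -0.34 to 0.19), so the numbers do not pair them. With the replicate number as a block, no member was called, 10 genes were higher and 11 lower, and no listed gene was called, while the log2 changes were 0.77 for Cox6a1, 0.69 for Cox8a, 0.65 for Atp5g2 and 0.94 for Cox4i2. The blocked log2 differences of the ratios were 0.77 for Cox4i2 to Cox4i1, -1.15 for Cox6a2 to Cox6a1 and 0.61 for the Atp5g2 share, each at an exact permutation p of 0.03125, the smallest that 64 sign patterns can give, and an adjusted p of 0.0625, so that missing the threshold says nothing about stability. Cox4i2 to Cox4i1 was 0.58 without wildtype 2 and 3, and Cox6b2 to Cox6b1 was 0.96 in the f libraries alone, where it passed, and 0.23 without wildtype 2 and 3, which the f set includes. The 4 called members kept their sign in the 14 fits that each left out 1 library and the 18 other settings, and 19 of the 40 others changed sign in at least 1. The 4 had been picked for their changes in these same libraries, which the fits share, so the kept sign is no separate support. The cause of the differences between settings was not tested. Counts near 0 limit Cox8b and Cox8c.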
